A study of Mus musculus with 16 samples.

Results

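The reactive astrocyte genes Gfap, Vim, Serpina3n, A2m, Sulf1, Cd44, Osmr, Lcn2 and Stat3 were read by symbol in the deposited tables, 9 of 32285 genes in all. They were listed with results of these data known, namely their higher levels in astrocytes of Tau+ mice. The tau comparison in astrocytes is therefore given as a description, and calls on it are no test of these genes, while the effect of Ch25h, its interaction with tau and the values in other cell classes were tested. The Ch25h contrasts in astrocytes and the tests in other classes share Tau+ libraries with the choice and are not fully independent of it. Nuclei from the hippocampus of 9-month-old females were sequenced one by one for their RNA, in 4 groups of 4 libraries. Each Ch25h genotype, wild type (Ch25h+/+) or knockout (Ch25h-/-), came without (Tau-) and with (Tau+) the tau genotype. Ch25h encodes cholesterol 25-hydroxylase, an interferon-inducible enzyme that makes 25-hydroxycholesterol, and the study's title joins it to STING and interferon signalling and to tau pathology. The labels name neither the tau transgene nor the promoter that drives it, nor how the Ch25h allele was made, and no treatment is given. The labels do not say whether a library is 1 mouse or a pool of animals.

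Astrocytes respond to injury, inflammation and protein aggregates with a change in shape and gene expression called reactivity. Its best known sign is a rise of the intermediate filament proteins GFAP and vimentin. Cytokines of the interleukin-6 family, among them oncostatin M, bind receptors that share the gp130 subunit, and the JAK kinases on these receptors activate the transcription factor STAT3, which is needed for much of this response. Secreted protease inhibitors, matrix receptors and enzymes that edit heparan sulfate on the cell surface are other products of reactive astrocytes.

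The RefSeq promoter table (GRCm38.p6) held 7 of the 9 genes; A2m and Sulf1 were not among them. The 250 bases before the start site are shown for 4 genes, in lower case and 5′ to 3′ on the gene's strand: the 3 that hold the letters TTC and GAA with any 4 bases between them, a pattern of the kind that STAT proteins bind, with the match in capitals, and Serpina3n, whose tau fold change was the largest of the 8 that could be fitted and which holds no match.
Gfap (chr11:102897201-102897450, minus strand): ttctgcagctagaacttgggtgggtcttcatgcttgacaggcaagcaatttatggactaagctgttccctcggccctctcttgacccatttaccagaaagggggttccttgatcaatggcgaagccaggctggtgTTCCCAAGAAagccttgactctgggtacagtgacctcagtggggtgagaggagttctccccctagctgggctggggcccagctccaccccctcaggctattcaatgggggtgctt
Lcn2 (chr2:32387740-32387989, minus strand): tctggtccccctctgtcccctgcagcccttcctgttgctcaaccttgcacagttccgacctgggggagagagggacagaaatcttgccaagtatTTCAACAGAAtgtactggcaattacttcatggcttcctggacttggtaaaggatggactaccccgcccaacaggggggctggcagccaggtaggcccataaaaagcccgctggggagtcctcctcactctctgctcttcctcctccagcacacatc
Cd44 (chr2:102901666-102901915, minus strand): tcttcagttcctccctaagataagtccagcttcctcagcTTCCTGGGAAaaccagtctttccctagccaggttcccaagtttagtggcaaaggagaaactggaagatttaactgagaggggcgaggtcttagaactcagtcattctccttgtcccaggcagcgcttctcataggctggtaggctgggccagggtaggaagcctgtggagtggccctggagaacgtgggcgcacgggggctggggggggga
Serpina3n (chr12:104406458-104406707, plus strand): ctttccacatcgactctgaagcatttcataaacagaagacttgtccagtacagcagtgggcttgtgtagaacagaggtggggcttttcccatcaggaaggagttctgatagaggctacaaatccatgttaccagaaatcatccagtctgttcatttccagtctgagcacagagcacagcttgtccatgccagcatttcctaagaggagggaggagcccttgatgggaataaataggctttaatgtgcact
The match began 115 bases before the start site in Gfap, 156 in Lcn2 and 211 in Cd44. Both strands were searched, and 5.85% of all 32851 promoters of this length held the same pattern. The shorter form TTCNNNGAA, the usual STAT3 form, was in 0 of the 7 promoters and in 7.02% of all. TTCNNGAA (7.17% of all), the AP-1 site TGANTCA (6.75%) and the full palindrome of nuclear factor I (0.037%) were also in 0 of the 7. The 3 spacings of TTC and GAA can overlap one another. The search was made after the levels were seen, and a match describes letters in this window, not a bound site.

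Astrocyte nuclei were 13932 of 136828 nuclei (507 to 1190 per library, median 2375.5 UMIs) in 2 clusters, both with all 12 astrocyte markers at least 2-fold above the other nuclei. A UMI (unique molecular identifier) tags 1 captured RNA molecule, and levels are given as CPM, the counts of a gene scaled to all UMIs of the same class and library. The summed CPM of the 12 markers in astrocyte nuclei ranged from 21477 to 25620 in Ch25h+/+ Tau+, 23821 to 27661 in Ch25h+/+ Tau-, 22629 to 25432 in Ch25h-/- Tau+ and 24923 to 28793 in Ch25h-/- Tau-. Ch25h itself (chr19:34473778-34475164) was no lower over all nuclei of the Tau- libraries labelled Ch25h-/-, at 0.204 to 0.436 CPM (mean 0.348), than of Ch25h+/+ Tau-, at 0.147 to 0.240 (mean 0.195). With tau it read 0.294 to 0.554 (mean 0.451) and 0.320 to 0.778 CPM (mean 0.474). The ranges overlap, the place of the counted 3′ tags relative to the deleted part is not given in the sources used here, and the Ch25h genotype is taken from the labels alone. The lincRNA Gm43049 separated the tau labels, at 0.020 to 0.207 CPM in the 8 Tau- libraries and 67.4 to 87.0 in the 8 Tau+ libraries. In each group the first principal component of the libraries' deviations from their group means (36.97% of the variance) put replicates 1 and 2 on one side and 3 and 4 on the other, and the labels give no batch. Of 145135 distinct nucleus barcodes, 2700 occurred in more than 1 library.

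In both Ch25h genotypes all 8 of the genes with enough UMIs to be fitted had a higher mean in Tau+ than in Tau- astrocytes, by log2 fold changes of 0.44 to 4.42. Serpina3n, Sulf1 and A2m had the largest folds and Stat3 the smallest. Lcn2 was too rare to fit. Within both Tau+ groups replicate 3 had the lowest value of each of the 8 genes. Levels of 6 of the 8 genes in Ch25h+/+, and 4 of 8 in the libraries labelled Ch25h-/-, did not overlap between Tau+ and Tau-, where 4.58% and 3.09% of all 12806 genes were higher without overlap (1.48% and 1.39% lower). These genes were chosen on this contrast, and nothing is read from those counts.

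**Figure D1:**
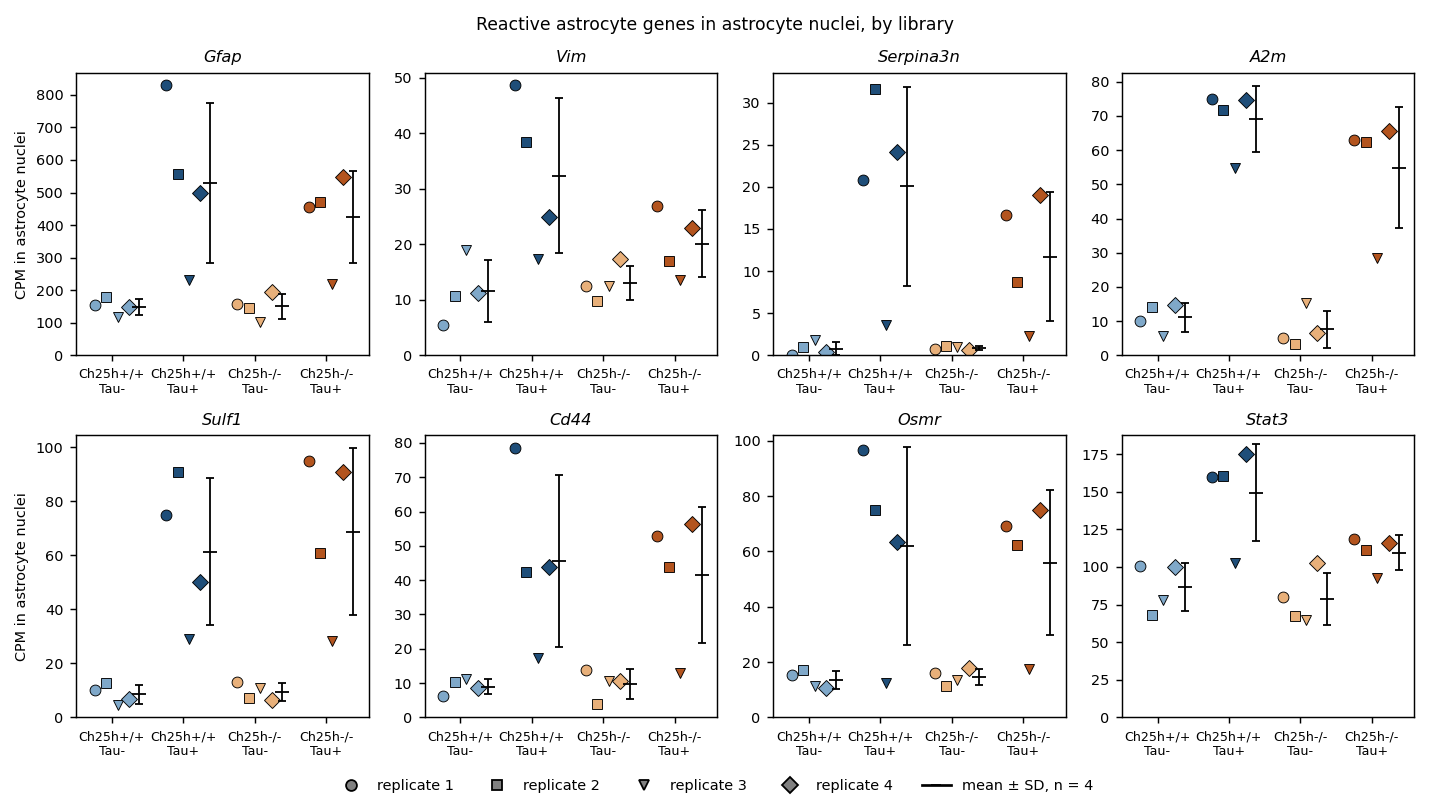
Level in astrocyte nuclei (CPM, linear axes from 0) of the 8 fitted genes in each of the 16 libraries, by group, with the mean and SD over 4 libraries beside the points. Replicate 3 (triangle) is the lowest Tau+ library of each panel in both Ch25h genotypes, for example at 232 and 220 CPM for Gfap.

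Gfap (chr11:102887336-102900912) encodes glial fibrillary acidic protein, the main intermediate filament of reactive astrocytes. In Ch25h+/+ Tau+ its level was 830, 557, 232 and 498 CPM in replicates 1 to 4, against 153, 178, 118 and 147 in Ch25h+/+ Tau-. The libraries labelled Ch25h-/- held 456, 472, 220 and 549 CPM with tau and 158, 146, 103 and 193 without. The Tau+ and Tau- libraries did not overlap in either genotype, though replicate 3 of each Tau+ group lay only 1.30 and 1.14 times above the highest Tau- library. The tau log2 fold change was 1.76 (SE 0.35) in Ch25h+/+ and 1.47 (SE 0.35) in Ch25h-/-. Vim (chr2:13573927-13582826) encodes vimentin, the filament that assembles with GFAP. Its values were 48.6, 38.4, 17.3 and 24.9 CPM in Ch25h+/+ Tau+ and 5.42, 10.8, 18.9 and 11.2 in Ch25h+/+ Tau-, which overlap. The libraries labelled Ch25h-/- held 26.9, 17.0, 13.6 and 22.99 with tau and 12.5, 9.79, 12.5 and 17.3 without, which overlap as well. Its tau fold was 1.36 (SE 0.32) in Ch25h+/+ and 0.58 (SE 0.33) in Ch25h-/-.

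The protease inhibitors followed. Serpina3n (chr12:104406729-104414329) is a secreted serine protease inhibitor widely used as a marker of reactive glia. It was nearly absent without tau, at 0 to 1.84 CPM in the 8 Tau- libraries. With tau it read 20.8, 31.6, 3.65 and 24.2 CPM in Ch25h+/+ and 16.6, 8.75, 2.27 and 19.0 in the libraries labelled Ch25h-/-. The groups did not overlap, and the fold was 4.42 (SE 0.77) and 3.65 (SE 0.80). Pooled over all libraries, Serpina3n stood at 18.8 CPM in near-empty barcodes (under 100 UMIs), above its 9.21 CPM in astrocytes, and it was higher there than in astrocytes in all 8 Tau- and in 7 of the 8 Tau+ libraries. In those barcodes its mean was 29.7 ± 13.3 CPM (SD, n = 4) in Ch25h+/+ Tau+ and 11.9 ± 1.72 in Ch25h+/+ Tau-, and the part of this free RNA in the astrocyte values was not tested. Serpina3n lies in a cluster of near-identical copies, so its counts are uncertain as far as reads were shared with them. A2m (chr6:121635376-121679227) encodes alpha-2-macroglobulin, a broad protease trap cleared through the receptor Lrp1. Its Tau+ levels were 74.9, 71.7, 54.7 and 74.8 CPM in Ch25h+/+ and 63.1, 62.3, 28.3 and 65.7 in Ch25h-/-. Tau- libraries read 5.53 to 14.7 and 3.26 to 15.4 CPM, below every Tau+ library. The fold was 2.54 (SE 0.34) and 2.68 (SE 0.36). In near-empty barcodes A2m read 1.86 to 13.2 CPM without tau, above the astrocyte level in 3 of 8 libraries, and 4.29 to 20.5 with tau, above it in 0 of 8. Vim was higher there than in astrocytes in 3 Tau- libraries and 1 Tau+ library, Cd44 in 3 and 0, and Gfap, Osmr and Stat3 in 0. The part of this free RNA in their astrocyte levels was not tested.

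Matrix genes came next. Sulf1 (chr1:12692277-12861192) encodes a secreted enzyme that removes 6-O-sulfate groups from heparan sulfate and so changes which growth factors it holds. Its Tau+ levels were 74.9, 90.7, 29.2 and 50.2 CPM in Ch25h+/+ and 94.9, 60.7, 28.3 and 90.6 in the libraries labelled Ch25h-/-. All 8 lay above the Tau- range of 4.61 to 13.2 CPM, with folds of 2.80 (SE 0.44) and 2.89 (SE 0.43). In each of the 8 Tau- libraries Sulf1 was higher in near-empty barcodes (8.68 to 25.5 CPM) than in astrocytes, and in each of the 8 Tau+ libraries it was lower there (10.4 to 30.3 CPM). The part of this free RNA in the Tau- levels of Sulf1 was not tested. Choroid plexus nuclei held far more Sulf1 and A2m than astrocytes (values below), and the 7 choroid plexus markers summed in astrocyte nuclei to 151 to 279 CPM in Ch25h+/+ Tau+, 33.7 to 192 in Ch25h+/+ Tau-, 29.6 to 240 in Ch25h-/- Tau+ and 30.5 to 183 in Ch25h-/- Tau-. The 8 OPC markers summed to 129.9 to 184.9 CPM in Ch25h+/+ Tau+ and 70.1 to 119 in Ch25h+/+ Tau-, without overlap, and to 109 to 170 and 90.1 to 129.9 in Ch25h-/-, with overlap. OPCs too hold more Sulf1 than astrocytes. Fibroblasts, also high in Sulf1, gave 8 markers that were lower with tau, at 109 to 176 CPM in Ch25h+/+ Tau+ and 160 to 192 in Ch25h+/+ Tau-, with overlap, and at 149.8 to 164 and 168 to 201 in Ch25h-/-, without overlap. None of these markers was at 0 in all libraries, and their part in the Sulf1 and A2m values was not tested. Cd44 (chr2:102811141-102901665), the receptor for hyaluronan and osteopontin, read 78.5, 42.5, 17.3 and 43.8 CPM in Ch25h+/+ Tau+ and 52.8, 43.7, 13.04 and 56.5 in Ch25h-/- Tau+. Tau- libraries held 6.19 to 11.1 and 3.81 to 13.9 CPM, so that only replicate 3 of the libraries labelled Ch25h-/- Tau+ fell within the Tau- range. The folds were 2.23 (SE 0.48) and 2.07 (SE 0.48).

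The cytokine receptor and its transcription factor differed in size. Osmr (chr15:6813577-6874969) encodes the subunit that pairs with gp130 to bind oncostatin M. It read 96.5, 75.1, 12.3 and 63.4 CPM in Ch25h+/+ Tau+ and 69.1, 62.3, 17.6 and 74.9 in Ch25h-/- Tau+, against 10.5 to 17.3 and 11.4 to 18.0 without tau. Of the 8 Tau+ libraries 6 held 62.3 CPM or more, and replicate 3 of each group lay inside the Tau- range. Endothelial cells, where Osmr and Vim are high, gave 8 markers that summed in astrocyte nuclei to 8.21 to 9.82 CPM in Ch25h+/+ Tau+ and 4.64 to 7.84 in Ch25h+/+ Tau-, without overlap, and to 9.07 to 13.8 and 4.90 to 9.54 in Ch25h-/-, with overlap. The 8 markers of mural cells, the class with the highest Osmr, summed to 175 to 203 CPM in Ch25h+/+ Tau+ and 156 to 222 in Ch25h+/+ Tau-. In Ch25h-/- they summed to 166 to 223 and 153 to 187, with overlap in both genotypes. Fibroblasts hold Osmr too, and their markers, given above, were lower with tau. None of the endothelial or mural markers was at 0 in all libraries. The part of these classes in the Osmr and Vim values was not tested. The Osmr folds were 2.13 (SE 0.53) and 1.88 (SE 0.52). Stat3 (chr11:100885098-100939540) was present throughout, at 68.2 to 100.6 CPM in Ch25h+/+ Tau- and 65.0 to 103 in Ch25h-/- Tau-. With tau it read 160, 161, 103 and 175 CPM in Ch25h+/+ and 118, 111, 92.4 and 116 in the libraries labelled Ch25h-/-. The groups did not overlap in Ch25h+/+ and overlapped in Ch25h-/-, with folds of 0.72 (SE 0.17) and 0.44 (SE 0.18).

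Lcn2 (chr2:32384633-32388252) encodes lipocalin 2, a secreted carrier of iron-binding siderophores that acute inflammation induces strongly in astrocytes. Only 24 Lcn2 UMIs were counted in all astrocyte nuclei, and 12 of the 16 libraries had none. In Ch25h+/+ Tau+ replicates 1 and 2 held 3 and 12 UMIs (1.18 and 4.08 CPM) and replicates 3 and 4 held 0. Replicate 1 of Ch25h-/- Tau+ held 8 (2.83 CPM), replicate 3 of Ch25h+/+ Tau- held 1, and no other library held any. In Ch25h-/- Tau- 0 of 3625 astrocyte nuclei had an Lcn2 UMI, which allows a share of up to 0.0828% (counting error only). This limits nuclei with a UMI, not nuclei that express the gene, and no fold is given.

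Leaving out replicate 3 of both Tau+ groups, a choice made after their values were seen, left the tau folds higher for all 8 genes: Gfap 1.995 (SE 0.205) in Ch25h+/+ and 1.67 (SE 0.20) in Ch25h-/-, Osmr 2.46 (SE 0.19) and 2.16 (SE 0.19), Serpina3n 4.75 (SE 0.42) and 3.97 (SE 0.44). Replicate 3 was the lowest of its group for each of the 8 genes, so higher folds had to follow. Nothing is read from the rise or from these SEs. In the fit over all genes (edgeR's quasi-likelihood test, Benjamini-Hochberg adjustment, threshold 0.05), the 78 genes called for tau in Ch25h+/+ (0.609% of 12806) held 4 of the 8, and the 6 called in Ch25h-/- (0.0469%) held 2. The genes were chosen on this contrast, and nothing is read from these counts. The 2 libraries carried Gm43049 at 67.4 CPM (Ch25h+/+, the lowest of the 8 Tau+ libraries) and 71.0 CPM (Ch25h-/-, the lowest of its group), against at most 0.207 in Tau- libraries. They held 854 and 721 astrocyte nuclei with medians of 2430.5 and 2286 UMIs, where the other 6 Tau+ libraries had medians of 2102 to 2890.

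Loss of Ch25h changed none of the 8 genes past the threshold, with or without tau. In Tau+ astrocytes, Ch25h-/- minus Ch25h+/+ gave log2 fold changes of -0.76 to 0.19, 7 of 8 below 0, with a median of -0.29 beside -0.0028 over all 12806 genes. The 8 genes share libraries and were chosen as high in Tau+, so their folds are not separate observations. Nothing is read from their shared direction. By edgeR 0 of 8 were called (0% of all genes called), 2 had an unadjusted p under 0.05 (397 of the 12806 genes did), and DESeq2 called 0. Those 2 were Stat3, at -0.42 (SE 0.17, 95% interval -0.77 to -0.06, edgeR unadjusted p = 0.025, adjusted p = 0.9996), and Vim, at -0.64 (SE 0.30, interval -1.27 to -0.0099, edgeR unadjusted p = 0.047, adjusted p = 0.9996). Mean Stat3 was 149 ± 32.0 CPM (SD, n = 4) in Ch25h+/+ Tau+ and 109 ± 11.8 in Ch25h-/- Tau+. Mean Vim was 32.3 ± 13.9 and 20.1 ± 5.97 CPM. For each of the 9 genes the 2 groups overlapped, where 0.984% of all genes were higher and 1.53% lower without overlap. Serpina3n had the largest difference, -0.76, and a wide interval of -1.82 to 0.30. The intervals of Gfap (-0.999 to 0.43), A2m (-0.91 to 0.30), Sulf1 (-0.55 to 0.93), Cd44 (-0.96 to 0.76) and Osmr (-1.09 to 0.86) hold changes of up to about 1 log2 unit in either direction for the widest of them.

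Without tau the 8 folds for Ch25h loss ran from -0.44 (A2m) to 0.14 (Vim), with a median of 0.04 beside -0.0025 over all genes. Gfap stood at 0.00 (SE 0.35), from means of 150 ± 37.2 CPM in Ch25h-/- Tau- and 149 ± 24.9 in Ch25h+/+ Tau-. No gene was without overlap between the genotypes (0.882% of all genes higher and 1.19% lower). By edgeR 0 of 8 were called (0% of all genes) and 0 had an unadjusted p under 0.05 (3.30% of all genes did), and DESeq2 called 0. The interaction, the tau fold in Ch25h-/- minus that in Ch25h+/+, was likewise called for 0 of 8 genes (0% of all genes, 0 at an unadjusted p under 0.05 beside 3.65% of all genes, 0 by DESeq2). It was -0.78 (SE 0.46, interval -1.75 to 0.19) for Vim, -0.28 (SE 0.25) for Stat3, -0.29 (SE 0.48) for Gfap, and 0.14 (SE 0.51) and 0.09 (SE 0.65) for A2m and Sulf1. The tau folds of Vim, 1.36 and 0.58, were thus not shown to differ between the genotypes.

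**Figure D2:**
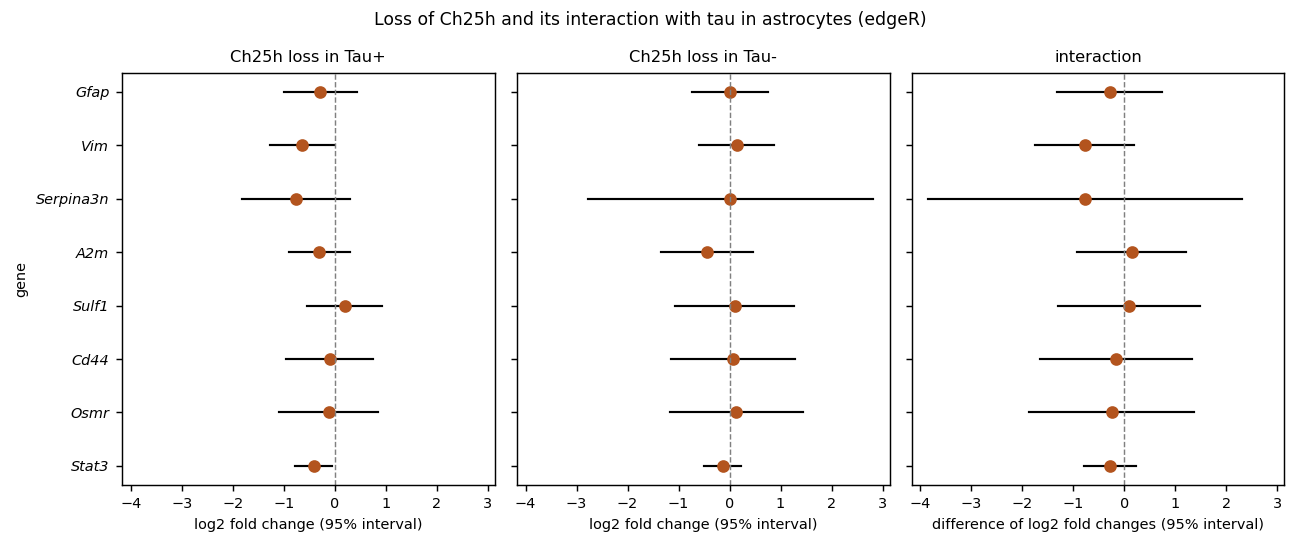
Log2 fold changes (points) with 95% intervals (lines) from edgeR in astrocytes for the 8 fitted genes: Ch25h-/- minus Ch25h+/+ in Tau+, the same in Tau-, and the interaction. All intervals cross 0 except those of Vim and Stat3 for Ch25h loss in Tau+, neither of which passed the adjusted threshold.

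The mean share of astrocyte nuclei with a UMI was also higher with tau for each of the 8 genes in both genotypes, though for Vim in Ch25h-/- by less than the SD (1.38 ± 0.65% and 1.205 ± 0.77%), and its pooled share was lower (1.32% and 1.39%). Each nucleus was thinned to 1000 UMIs (325 shallower astrocyte nuclei left out) so that depth was equal. A Gfap UMI was then found in 15.97 to 40.4% of astrocyte nuclei in Ch25h+/+ Tau+ and 16.4 to 27.4% in Ch25h-/- Tau+, against 10.5 to 12.2% and 9.14 to 14.9% without tau. Unthinned, the ranges over libraries were 31.4 to 59.7%, 28.6 to 45.9%, 18.5 to 22.5% and 19.3 to 27.6% in the same order. Granule neurons of the dentate gyrus (DG), which lack GFAP, gave 0.108 to 0.435% per group after the same thinning (median depth 5760 UMIs). Osmr was found in 1.55 to 6.08% of astrocyte nuclei in Ch25h+/+ Tau+ and 0.949 to 1.45% in Ch25h+/+ Tau-, and in at most 0.0172% of DG granule nuclei of a group. A2m was in 2.86 to 5.49% and 0.727 to 1.03%, and Sulf1 in 2.86 to 5.47% and 0.422 to 1.09%. Serpina3n was in 0.358 to 2.33% of Ch25h+/+ Tau+ astrocyte nuclei and 0 to 0.211% of Ch25h+/+ Tau- nuclei, the latter under the 0.328% of DG granule nuclei of that group. Granule nuclei held more Serpina3n (3.70 CPM) than other excitatory neurons did (0.448 CPM), and are no clean background for it. In Ch25h+/+ Tau+, 45.7% of the 999 thinned astrocyte nuclei with a UMI of any of the other 8 genes also had a Gfap UMI, and 23.3% of the 2706 without did. In Ch25h+/+ Tau- the same shares were 18.8% of 442 and 10.6% of 3130. Nuclei of a library are not replicates, so these shares have no test.

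**Figure D3:**
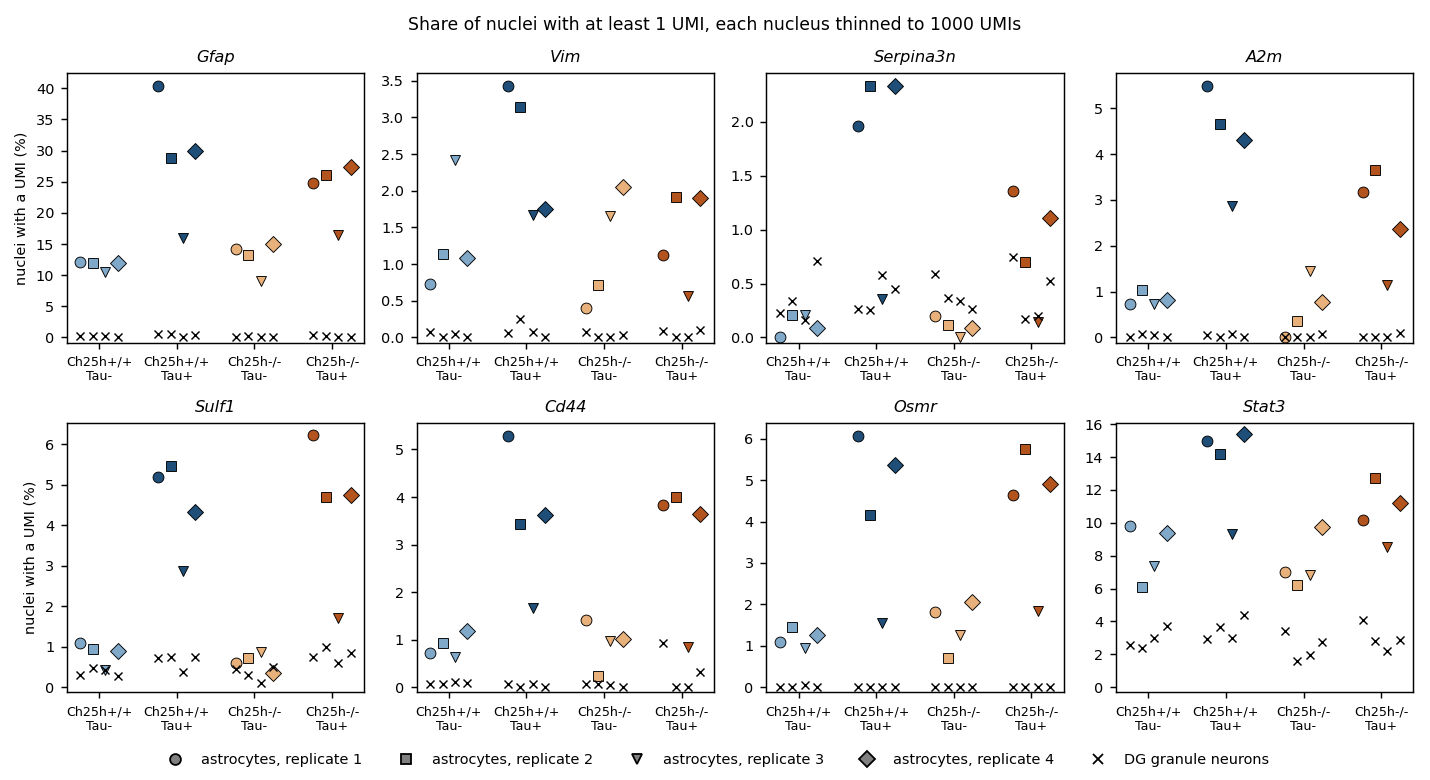
Percent of nuclei with at least 1 UMI of each gene after thinning to 1000 UMIs, by library and group, in astrocytes (filled symbols by replicate) and DG granule neurons (crosses). Gfap reaches 40.4% of astrocyte nuclei in 1 Ch25h+/+ Tau+ library and stays at or below 14.9% in the 8 Tau- libraries.

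The 9 genes did not share one distribution over cell classes, even though the clustering left them out. Of all Gfap UMIs in nuclei, 86.5% lay in astrocytes, which held 4.37% of all UMIs. Pooled over the 16 libraries Gfap stood at 323 CPM in astrocytes, 65.2 in ependymal cells and 1.28 to 18.9 in all other classes. Osmr had 67.2% of its UMIs in astrocytes, where its pooled level was 38.2 CPM. That level was higher in mural cells (113 CPM, 454 nuclei), endothelial cells (100.8 CPM, 342 nuclei) and fibroblasts (53.2 CPM, 2977 nuclei). Astrocyte group means of Osmr were 13.7 and 14.7 CPM without tau and 61.8 and 56.0 with tau (Ch25h+/+ and Ch25h-/-). The order of astrocytes and fibroblasts may therefore depend on the group. Vim was highest in endothelial cells, at 348 CPM, then ependymal cells (77.1), fibroblasts (39.5) and astrocytes (20.5). Sulf1 was highest in choroid plexus epithelium, at 1523 CPM, then fibroblasts (290), oligodendrocyte precursors (OPCs, 123) and other excitatory neurons (71.0), with ependymal cells at 39.6 and astrocytes at 38.5. Astrocyte group means of Sulf1 were 8.57 and 9.36 CPM without tau and 61.3 and 68.7 with tau (Ch25h+/+ and Ch25h-/-), beside 72.0, 81.1, 76.2 and 65.5 in other excitatory neurons in the same order, so the place of astrocytes depends on the group. Only 4.57% of Sulf1 UMIs lay in astrocytes. A2m was highest in choroid plexus (205 CPM) and stood at 37.7 in fibroblasts and 37.4 in astrocytes. The astrocyte value pools group means of 11.1 and 7.62 CPM without tau and 69.0 and 54.9 with tau (Ch25h+/+ and Ch25h-/-). The fibroblast value was not split by group, so the order of fibroblasts and astrocytes may depend on the group. Cd44 was at 41.8 CPM in ependymal cells and 27.5 in astrocytes. The astrocyte group means ran from 9.02 CPM in Ch25h+/+ Tau- to 45.5 in Ch25h+/+ Tau+. The ependymal value was not split by group, so the order of these 2 classes may depend on the group. Stat3 was present in every class, highest in microglia (156 CPM) and fibroblasts (135), with astrocytes at 109 and CA pyramidal neurons lowest at 12.6. The astrocyte value pools group means of 86.8 and 78.8 CPM without tau and 149 and 109 with tau (Ch25h+/+ and Ch25h-/-). The place of astrocytes may therefore depend on the group. Serpina3n was at 9.43 CPM in oligodendrocytes, 9.21 in astrocytes and 6.26 in OPCs, while the means over libraries were 7.69, 8.35 and 6.102, so the first 2 have no order. Its astrocyte group means were 0.79 and 0.87 CPM without tau and 20.1 and 11.7 with tau (Ch25h+/+ and Ch25h-/-). Those without tau lay below the lowest OPC library of all 16 (1.66 CPM), so the place of astrocytes depends on the group. Lcn2 reached its highest pooled level in endothelial cells, on 10 UMIs (12.6 CPM). Classes with few nuclei in some libraries (endothelial, mural, fibroblast, choroid plexus, ependymal and Cajal-Retzius) were described and not tested.

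**Figure D4:**
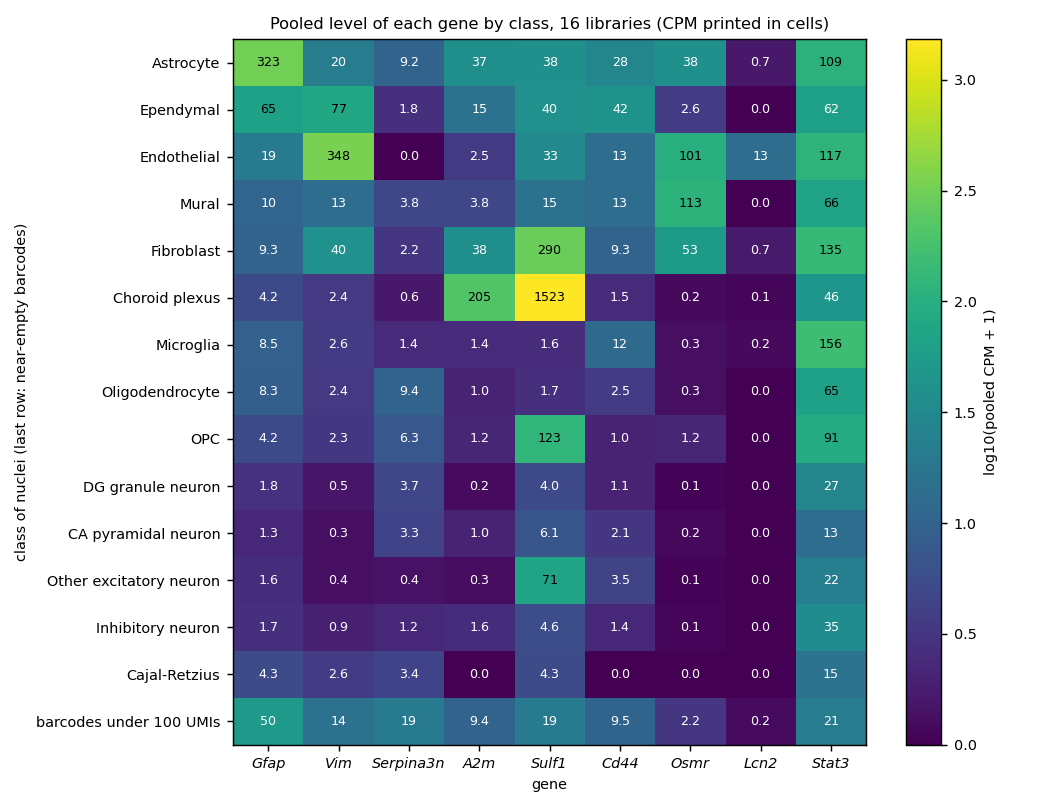
Pooled level of each gene (CPM, printed in the cells, colour on a log10 scale) in each class of nuclei over 16 libraries, with near-empty barcodes in the last row. Gfap is highest in astrocytes (323 CPM), while Sulf1 and A2m peak in choroid plexus (1523 and 205 CPM) and Vim in endothelial cells (348 CPM).

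Outside astrocytes 24 pairs of gene and class had enough UMIs to be fitted, in 7 classes, and none of the 120 tests over 5 contrasts was called by edgeR (lowest adjusted p = 0.141). At an unadjusted p under 0.05 there were 23 (19.2%), and DESeq2 called 2. The share of all genes at an unadjusted p under 0.05 was 2.33% to 15.1% in these classes and contrasts, and 4.93% as a mean over the same 120 tests, which share libraries and genes. The tau tests also use the libraries in which these genes were chosen, so nothing is read from 19.2% beside 4.93%. For tau in Ch25h+/+ and then in Ch25h-/-, the share of all genes called was 2.14% and 1.54% in microglia, 0.0168% and 0% in oligodendrocytes, 0.0106% and 0.0951% in OPCs, 0.0265% and 0.0663% in DG granule neurons, 0.0183% and 0.0974% in CA pyramidal neurons, 0.0202% and 0.0202% in other excitatory neurons, and 0.02% and 0.02% in inhibitory neurons. For Ch25h loss it was 0.00663% with and 0.00663% without tau in DG granule neurons, 0.0183% and 0.00608% in CA pyramidal neurons, and without tau 0.00666% in inhibitory neurons. It was 0% for Ch25h loss elsewhere and for the interaction in all 7 classes. Oligodendrocytes gave the largest fold. Their Serpina3n level was 3.41 to 27.8 CPM in Ch25h+/+ Tau+ and 0 to 4.89 in Ch25h+/+ Tau-, a tau fold of 2.66 (SE 0.73, edgeR adjusted p = 0.539), and 3.40 to 21.5 and 0.593 to 2.23 CPM in the libraries labelled Ch25h-/-, a fold of 3.16 (SE 0.96, edgeR adjusted p = 0.419). DESeq2 called the first of these. In near-empty barcodes Serpina3n read 13.4 to 45.5 CPM in Ch25h+/+ Tau+ and 9.57 to 13.5 in Ch25h+/+ Tau-. The part of this free RNA in the oligodendrocyte levels and folds was not tested. Stat3 in oligodendrocytes had a tau fold of 0.81 (SE 0.19, edgeR adjusted p = 0.381) in Ch25h+/+, from means of 85.5 and 48.6 CPM, and in OPCs one of 0.65 (SE 0.18, edgeR adjusted p = 0.523), from 117 and 74.6 CPM. The Stat3 folds in Ch25h-/- were 0.51 (SE 0.20) in oligodendrocytes and 0.04 (SE 0.18) in OPCs, and neither interaction was called. Gfap in DG granule neurons was at 1.31 CPM without and 3.73 with tau in Ch25h+/+ (fold 1.44, SE 0.49, edgeR adjusted p = 0.831) and had a fold of 0.65 (SE 0.50) in Ch25h-/-, while Gfap in near-empty barcodes was 31.4 ± 4.92 CPM in Ch25h+/+ Tau- and 96.6 ± 45.5 in Ch25h+/+ Tau+. Cd44 in CA pyramidal neurons had a tau fold of -1.86 (SE 0.47, edgeR adjusted p = 0.141) in Ch25h-/-, from 0.983 and 3.76 CPM, the other call by DESeq2. In Ch25h+/+ that fold was 0.37 (SE 0.45), and the interaction was -2.23 (SE 0.65, edgeR adjusted p = 0.749). Microglial Cd44, with 106 UMIs in all, was below the filter on low counts. It read 2.83 to 29.8 CPM in Ch25h+/+ Tau+ and 0 to 6.81 in Ch25h+/+ Tau-.

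The 2 astrocyte clusters differed in their levels of these genes. The smaller held 1430 of the 13932 nuclei, and its leading genes included Myoc, Aqp4, Tnc, Gfap and Id3. These levels are a description. The smaller cluster made up 4.28 to 11.99% of astrocyte nuclei in Ch25h+/+ Tau-, 10.9 to 16.6% in Ch25h+/+ Tau+, 6.85 to 11.2% in Ch25h-/- Tau- and 8.04 to 14.3% in Ch25h-/- Tau+. Without tau it already held high Gfap, at 582 ± 135 CPM (SD, n = 4) in Ch25h+/+, against 115 ± 14.1 in the larger cluster. With tau these means were 931 ± 231 and 460 ± 251 CPM. A2m in Ch25h+/+ stood at 86.8 ± 42.7 CPM without tau and 247 ± 53.7 with tau in the smaller cluster, and at 5.22 ± 3.604 and 39.4 ± 20.8 in the larger. Sulf1 stood at 68.3 ± 16.5 and 137 ± 30.7 CPM in the smaller, and at 3.95 ± 2.22 and 48.5 ± 28.9 in the larger. Mean Osmr had the opposite order, at 34.9 ± 30.7 CPM in the smaller and 66.4 ± 38.3 in the larger cluster of Ch25h+/+ Tau+. Replicate 3 did not follow it, at 12.7 CPM in the smaller and 12.2 in the larger cluster. In Ch25h-/- Tau+ replicate 3 read 32.4 and 16.1. Osmr was too rare to fit in the smaller cluster. The tau folds in Ch25h+/+ were 1.93 (SE 0.44) for Gfap, 3.55 (SE 0.74) for Sulf1 and 2.77 (SE 0.73) for A2m in the larger cluster alone, and 0.62 (SE 0.19), 0.96 (SE 0.29) and 1.40 (SE 0.41) in the smaller. The difference between the clusters' folds was not tested.

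**Figure D5:**
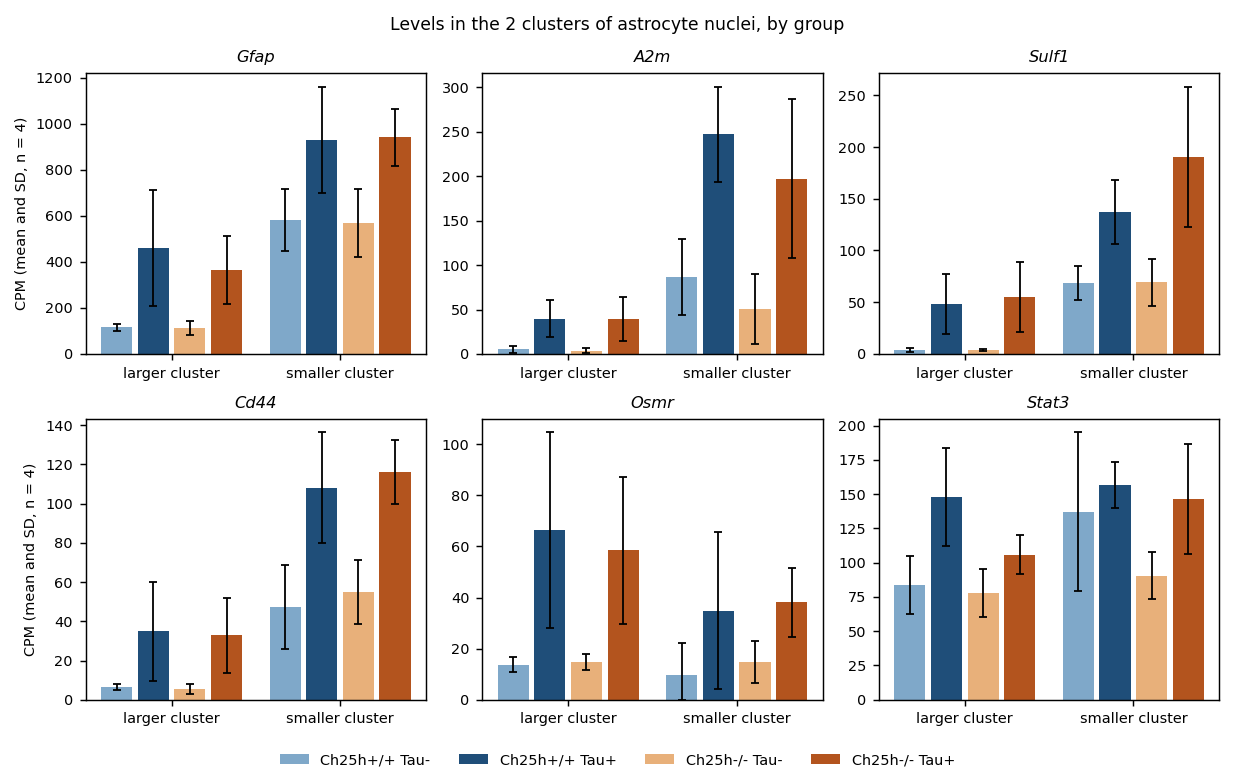
Level (CPM, mean and SD over 4 libraries, axes from 0) of 6 of the genes in the larger and the smaller astrocyte cluster, by group. Mean Gfap, A2m, Sulf1 and Cd44 are higher in the smaller cluster in all 4 groups, and mean Osmr in Tau+ is higher in the larger.

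Genes of the pathways around these 9 were read from lists drawn up with earlier results known. Of the gp130 and STAT3 list (19 genes, 12 fitted), 0 were called for tau in either genotype by edgeR. At an unadjusted p under 0.05 there were 3 higher and 1 lower in Ch25h+/+ and 5 higher in Ch25h-/-, where 12.5% and 7.90% of all genes were under it in either direction, and by DESeq2 3 were called in each. The median fold was 0.19 in Ch25h+/+ and 0.03 in Ch25h-/-, beside -0.0031 and -0.0036 over all genes. Of the fitted genes, Osmr and Stat3 belong to the 9 chosen on this contrast, and both are among the 3 higher in Ch25h+/+. Nothing is read from counts that include them. For the 10 fitted genes outside the 9 the median folds were 0.10 and -0.06, and 0 were called by edgeR. The shared receptor subunit Il6st, the gene of gp130, stood at 0.23 (SE 0.17) and 0.37 (SE 0.17), the LIF receptor Lifr at -0.26 (SE 0.14) and -0.06 (SE 0.15), and the kinase Jak1 at -0.02 (SE 0.11) and -0.21 (SE 0.11). Socs3, the feedback inhibitor that STAT3 induces, had folds of 3.32 (SE 0.89, edgeR adjusted p = 0.117) and 3.26 (SE 0.997, edgeR adjusted p = 0.254) on a mean of 11.8 UMIs per library. These 4 genes were named after their values were seen. Of 13 homeostatic astrocyte genes 0 were called by edgeR and by DESeq2 for tau in either genotype. At an unadjusted p under 0.05 there were 7 (Ch25h+/+) and 3 (Ch25h-/-), each with a fold below 0, beside the same 12.5% and 7.90% of all genes, and the medians of the list were -0.33 and -0.20. The glutamate transporter Slc1a2 stood at -0.21 (SE 0.09) and -0.20 (SE 0.09), and the water channel Aqp4 above 0, at 0.31 (SE 0.15) and 0.17 (SE 0.15). These 2 were named after their values were seen.

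Among the other lists, likewise drawn up with earlier results known, 3 genes outside the 9 were called for tau in Ch25h+/+. Their calls are a description and no independent test. Ggta1, the alpha-galactosyltransferase of the A1 list of reactive genes, had a fold of 2.18 (SE 0.42, edgeR adjusted p = 0.034), a call lost without the filter on low counts (fold 2.19, edgeR adjusted p = 0.057). Serping1, the complement C1 inhibitor and likewise a protease inhibitor, had one of 2.41 (SE 0.47, edgeR adjusted p = 0.023). Sulf2, which edits heparan sulfate as Sulf1 does, rose by 1.66 (SE 0.30, edgeR adjusted p = 0.017). In Ch25h-/- their folds were 1.42 (SE 0.41), 2.25 (SE 0.44) and 1.19 (SE 0.30), none called. With each library left out in turn, Ggta1 remained called in Ch25h+/+ in 8 of 16 fits, Serping1 in 11 and Sulf2 in 12. With the 9 included, 2 of 9 fitted pan-reactive genes, 2 of 7 A1 genes, 0 of 3 A2 genes, 1 of 4 intermediate filament genes, 3 of 7 protease inhibitors and partners, 2 of 11 matrix and heparan sulfate genes, 0 of 1 lipocalin receptor genes and 3 of 10 disease-associated astrocyte genes were called higher and none lower in Ch25h+/+, beside 0.609% of all genes. These counts include those of the 9 that were chosen on this contrast, and outside the 9 the called genes were Ggta1, Serping1 and Sulf2. For the 2 lists with 0, DESeq2 called 1 A2 gene and 0 lipocalin receptor genes, and 2 and 0 had an unadjusted p under 0.05 (12.5% of all genes did). For Ch25h loss in Tau+, in Tau- and for the interaction 0 genes of any list were called by edgeR or DESeq2.

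The genes most like each of the 9 except Lcn2 in their course over the 16 astrocyte libraries, by Pearson's r of log2(CPM + 1) among 12103 genes, were sought next. Lcn2 had too few UMIs for this. Gfap was most like Aspg (r = 0.963), Man1a (0.958) and Osmr (0.957), and Osmr most like 0610040F04Rik (0.971), Aspg (0.969) and Gfap. With group means removed the r of Gfap and Osmr was still 0.925. Cd44 was most like Parp3 (0.959), Irf9 (0.956) and Trim30a (0.947). A2m, Sulf1 and Serpina3n each had Gm43049, the mark of the tau line, among their 3 nearest genes (0.931, 0.952 and 0.930). With group means removed that r was 0.396 for A2m, 0.691 for Sulf1 and 0.689 for Serpina3n. Vim was most like Tbc1d5 (0.886) and Stat3 most like Plce1 (0.893). These values describe 16 libraries that share groups, depth and the low replicate 3 of both Tau+ groups, and have no test.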

How the data were processed

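Gene by barcode UMI count matrices of 16 libraries, as deposited by the authors, were the starting point; they are unfiltered raw counts. Per the submitters' processing notes they were made with Cell Ranger on mm10, while the file headers name another Cell Ranger release, so no version is given here. Barcodes with at least 500 UMIs, at least 300 genes and at most 5% mitochondrial UMIs were kept (147873 nuclei; library totals 51270831 to 84870650 UMIs over all barcodes). Scrublet scores removed 11045 likely doublets. Nuclei were clustered with scanpy 1.11.5 (3000 variable genes, 50 components, 20 neighbours, resolution 1), with the 9 genes left out, into 46 clusters. Clusters were named from markers at least 2-fold above the rest, at least 3 per name. Those with mostly doublets, low depth or leading genes of another class were left unnamed. This named 119327 nuclei in 14 classes, and 8.86 to 16.9% of nuclei per library stayed unnamed. Clusters of 4989 and 2649 nuclei had enough markers of other excitatory neurons but leading genes of another class, and are not in that class.

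Counts were summed per library and class. Of the classes, 8 held 20 or more nuclei in each of the libraries and were fitted in edgeR 4.0.16 (R 4.3.3; TMM, filterByExpr, robust quasi-likelihood test) over all 16 libraries, with Benjamini-Hochberg adjustment over all genes of a class and contrast and a threshold of 0.05. Alternatives were DESeq2 1.42.0, other scalings, no filter, deeper nuclei, doublets kept, the first component as a term and each library left out. The edgeR fit was tested on simulated astrocyte counts for Ch25h loss in Tau+ only. Of 100 genes changed by 1 log2 unit 66 were called, and of 100 changed by 2 units 98. Of the 179 calls 15 were false. The simulated counts were drawn separately for each gene, with no tau effect and no differences shared by a library. The shares called there may therefore be higher than the real counts would give. Labels do not say that libraries came from separate animals, so p-values measure the spread between these samples, which may be technical. The members and lists were chosen with earlier results of these data known. Besides the 9 genes, the text names, from each list, up to 3 called genes per direction and astrocyte contrast with the largest fold and 10 or more UMIs on average. It also names some or all of the 3 genes with the highest r to each of the 9 except Lcn2. Outside these rules, the list genes Il6st, Lifr, Jak1, Socs3, Slc1a2 and Aqp4 were named after their values were seen. Promoter sequences were taken from RefSeq (GRCm38.p6) and gene positions from GENCODE M21 (GRCm38); the start sites of the 2 sources can differ.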

Additional observations from a re-analysis of the deposited data

Results flagged for a closer look

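In 4 of 35 sets of 4 libraries (9 genes in 4 groups, without the set whose values are all equal), 1 library lay far from the other 3: its gap to the nearest, divided by the range, was above Dixon's 95% critical value, which chance passes in about 1 in 20 sets. A2m in astrocytes was low in replicate 3 of Ch25h+/+ Tau+, at 54.7 CPM, and in replicate 3 of Ch25h-/- Tau+, at 28.3 CPM. Lcn2 stood alone in replicate 1 of Ch25h-/- Tau+, at 2.83 CPM, and in replicate 3 of Ch25h+/+ Tau-, at 0.461 CPM on 1 UMI, where the other 3 libraries of each group had no Lcn2 UMI. With 3 libraries at 0 any UMI in the fourth passes the limit, so these 2 sets say nothing beyond the counts.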

How the results depend on the processing

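The 8 genes were chosen on the tau contrast in astrocytes, so their counts of calls there describe the settings and test nothing. In Ch25h+/+ 4 of 8 genes were called by edgeR, 8 by DESeq2 (which called 185 of all 12806 genes), 7 with the side of the first component as a term, 8 without both low Tau+ libraries (left out because their values were low), 8 in replicates 1 and 2 alone and 0 in replicates 3 and 4 alone. With each library left out in turn, 1 (without Ch25h+/+ Tau+ replicate 1) to 8 (without replicate 3 of that group) were called. In Ch25h-/- 2 were called by edgeR, 6 by DESeq2 (111 of all genes), 6 without both low Tau+ libraries, 5 in replicates 1 and 2 alone, 0 in replicates 3 and 4 alone, and 0 (without Ch25h-/- Tau- replicate 4) to 6 (without Ch25h-/- Tau+ replicate 3) with each library left out. The set of replicates 1 and 2 and that of replicates 3 and 4 are equal in size, and the cause of the different counts was not tested. The main edgeR fits called 78 and 6 of all 12806 genes. For the settings other than DESeq2, and for the other classes below, counts over all genes are not given. The counts of the 8 genes there cannot be set beside a share of all genes. In the other classes 0 calls became 2 by DESeq2, 1 without the filter on low counts (Cd44 in microglia) and 0 to 1 with each library left out. Of the list genes, 7 (Ch25h+/+) and 2 (Ch25h-/-) were called for tau by edgeR, and 16 and 16 by DESeq2. The edgeR calls include genes chosen on this contrast. These are Gfap, Serpina3n, A2m and Sulf1 in Ch25h+/+, and A2m and Sulf1, the only list genes called, in Ch25h-/-. Apart from them Ggta1, Serping1 and Sulf2 were called in Ch25h+/+ and none in Ch25h-/-. The DESeq2 counts were not split in this way, and nothing is read from them. For Ch25h loss and the interaction, 0 of 8 were called under every alternative run.

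The mean share of astrocyte nuclei with a UMI, thinned to 1000 UMIs, thinned to 2000 and unthinned, was 19.3, 30.6 and 32.7% for Gfap, 1.61, 2.78 and 3.96% for Vim, 0.700, 1.38 and 1.84% for Serpina3n, 2.10, 3.89 and 4.37% for A2m, 2.57, 4.82 and 5.30% for Sulf1, 2.09, 3.83 and 4.69% for Cd44, 2.80, 5.90 and 6.55% for Osmr, and 9.94, 16.6 and 20.6% for Stat3; deeper nuclei show more genes.

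Small log2 folds changed sign, and the cause was not tested. For Ch25h loss in Tau+ these were Gfap (0.053 in the smaller cluster, 0.10 in replicates 3 and 4), A2m (0.0080 in the larger cluster), Sulf1 (-0.047 in replicates 1 and 2), Cd44 (0.14 in the smaller cluster, 0.17 in replicates 3 and 4) and Osmr (0.27 in replicates 3 and 4). For Ch25h loss in Tau- they were, in the larger cluster, Gfap -0.027, Vim -0.048, Sulf1 -0.11 and Cd44 -0.25, in the smaller Gfap -0.042, in replicates 1 and 2 Gfap -0.14, Sulf1 -0.26, Cd44 -0.086 and Osmr -0.30, and in replicates 3 and 4 Vim -0.00441, Serpina3n -0.35 and A2m 0.072. For the interaction they were Gfap 0.10 and Stat3 0.50 (smaller cluster), Cd44 0.18 (larger) and 0.060 (replicates 3 and 4), and A2m -0.52 (replicates 3 and 4). The tau fold of Vim in Ch25h-/- was -0.16 in the smaller cluster. In Ch25h+/+ the tau fold of Vim was 2.24 (SE 0.30) in replicates 1 and 2 and 0.46 (SE 0.33) in replicates 3 and 4. That of A2m in Ch25h-/- was 3.88 (SE 0.28) and 2.06 (SE 0.56) in the same order, without a change of sign. With each library left out, Ch25h loss in Tau+ ranged from -0.53 to 0.0018 for Gfap, -0.026 to 0.45 for Sulf1, -0.35 to 0.27 for Cd44 and -0.44 to 0.16 for Osmr. In Tau- it ranged from -0.17 to 0.16 for Gfap, -0.067 to 0.45 for Vim, -0.27 to 0.73 for Serpina3n, -0.12 to 0.39 for Sulf1, -0.069 to 0.29 for Cd44 and -0.014 to 0.29 for Osmr. The interaction ranged from -0.078 to 0.79 for A2m, -0.19 to 0.34 for Sulf1, -0.42 to 0.21 for Cd44 and -0.58 to 0.028 for Osmr. Leaving out the low libraries, splitting the sides and splitting the clusters were chosen after seeing the data. No paired analysis was possible because the labels carry no replicate numbers that tie libraries across groups: the numbers used here only follow the order of deposit. The side of the first component, entered as a term above, was read from the data. Low counts limit Serpina3n in Tau- astrocytes and Lcn2 throughout.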
